A study of Macaca mulatta with 5 samples.

Results

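The genes described here encode the proteins that tether, dock, fuse and recycle membrane vesicles, both at the synapse and in the general traffic of every cell. They were chosen by symbol: synaptotagmins, syntaxins and their binding proteins, VAMP, SNAP, SV2, synapsin, synaptogyrin, complexin, RIMS, neurexin and neuroligin genes, and the RAB GTPases. Of 14132 genes named on the array, 88 met that rule, and 42 of these are RAB genes or regulators of RAB3. They carry 166 probe sets, and each gene was followed on its brightest one.

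Messenger RNA was measured with Affymetrix rhesus arrays in rhesus macaque embryonic stem cells of line 366.4, a line from preimplantation embryos, as they were steered towards serotonin neurons. Each stage had 1 array, so no value has a replicate error, no test was possible and every difference below compares 1 array with another. The stages were undifferentiated cells at passage 13 on mouse embryonic fibroblasts (ESC), embryoid bodies collected at 6 to 8 days (EB), neurospheres kept in medium with N2 supplement for 7 to 9 days (N1), spheres grown 7 to 9 days more with added FGF4 (N2), and maturing cells without FGF4 in wells that the labels call GFR reduced (N3). No stage carried a genetic change per the labels, and all 5 come from the same line. The labels call N2 proliferating and N3 differentiating serotonin neurons. Of 8 serotonin neuron markers, chosen after the data were seen, 5 lay below the detection floor in N3. TPH2, which makes serotonin in the brain, measured 5.36 there, FEV, the serotonin lineage factor, 85.3, and the vesicle transporter gene SLC18A2 150.3.

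Neurons release transmitter when calcium reaches synaptotagmin on the vesicle and the SNARE proteins of vesicle (VAMP) and surface membrane (syntaxin, SNAP25) zip together, with complexin holding the assembled complex ready. RAB3 and the RIM proteins bring vesicles to the release site, while SV2, synapsin and synaptogyrin sit on the vesicle itself. Neurexin and neuroligin bridge the cleft between cells. Most other syntaxins, VAMPs and RABs serve routes that all cells use, between endoplasmic reticulum, Golgi, endosomes and lysosomes.

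Signals are array intensities scaled to the same trimmed mean of 500 on each array. A signal below 100, the floor, is not told apart from background, and such signals have no order among themselves. A fold with 1 side below the floor is a bound, written as "at least". A comparison counts a gene as measured if its signal reached the floor on 1 or both of the arrays compared. A gene below the floor on 1 of the arrays can therefore be called in 1 direction only. All 88 genes fall into 51 at or above the floor at every stage, 29 at some stages and 8 at none, the last being SYT9, SYT10, SYT14, NRXN2, NLGN3, RAB27B, RAB39A and RAB41. The number above the floor was 69 in ESC, 60 in EB, 68 in N1, then 66 in N2 and 72 in N3. In percent this was 78.4 of the members in ESC, 68.2 in EB, 77.3 in N1, then 75 in N2 and 81.8 in N3, against 73.1, 67.6, 71.1, 70 and 70.4 of all named genes.

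Of the 80 members that reached the floor somewhere, 27 had their highest signal in N3 (33.8%, against 19.3% of all such genes), 20 in ESC (25% against 36.4%), 19 in EB, 8 in N1 and 6 in N2. A textbook list of neuronal exocytosis genes, chosen with earlier results of these data known, also takes in neurexins, neuroligins and the clathrin assembly gene SNAP91. It has 22 members here. Of these, 11 were highest in N3, among them NLGN4X, SNAP91 and SYN2, which had no 2-fold difference. SYT9, NRXN2, NLGN3 and RAB27B are counted in the 22 but never reached the floor. The other 17 genes of that list, such as SNAP25 and SYN1, were not analysed here.

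**Figure D1:**
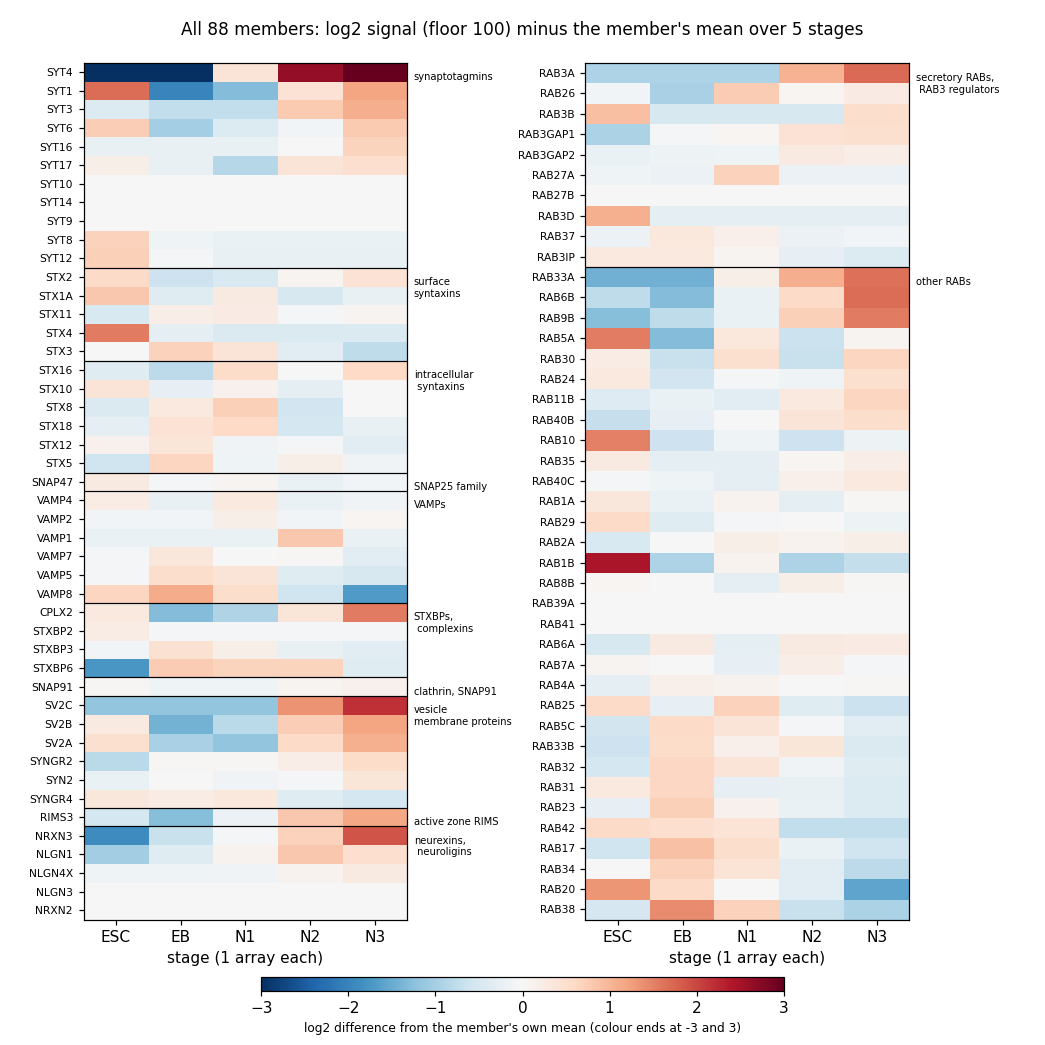
Heat map of the 88 members (rows, grouped by role and ordered by N3 minus EB) at the 5 stages (columns, 1 array each). Colour is the log2 signal, floored at 100, minus the member's own mean over the stages, and clips at -3 and 3; SYT4, SV2C, RAB3A, RAB33A, RAB6B, RAB9B and NRXN3 are blue early and red in N3, and the 8 members never above the floor are near white throughout.

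Many, though not all, measured genes of neuronal exocytosis were higher in N3 than in EB, and the other members went both ways. From EB to N3, 20 of 76 measured members were at least 2-fold higher (26.3%; 13% of all measured genes) and 11 were at least 2-fold lower (14.5%; 11.2% of all genes). In the neuronal exocytosis list 10 of 17 measured members were higher and 0 lower, with a median log2 difference of 2.05 that includes bounds. Of the 22 list genes 8 were above the floor in EB and 17 in N3. List genes measured only through N3 could not be called lower, and the list was chosen with earlier results of these data known. Among the other members 10 of 59 were higher and 11 lower, with a median of -0.06, beside -0.07 over all genes. The 10 list genes were SYT1, SYT4, SV2A, SV2B, SV2C, CPLX2, RIMS3, NRXN3, RAB3A and RAB26. Of these, SYT4, SV2B, SV2C, CPLX2, RAB3A and RAB26 were below the floor in EB, so their differences are bounds. All 10 kept 2-fold under each of 4 other scalings of the arrays, and all but RAB26 under each of the 10 alternative settings. These scalings include the values as deposited, whose trimmed means were already near equal (199.1 to 199.3), so that scaling hardly differs from the main one. Among all members, 28 called in this comparison were followed across the settings, and 18 kept 2-fold under each. The split of all members depended on scaling: it was 17 higher and 22 lower with equal medians, and 16 and 14 after quantile normalisation. In a bulk culture, more cells that express a gene and more RNA of it per cell cannot be told apart.

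**Figure D2:**
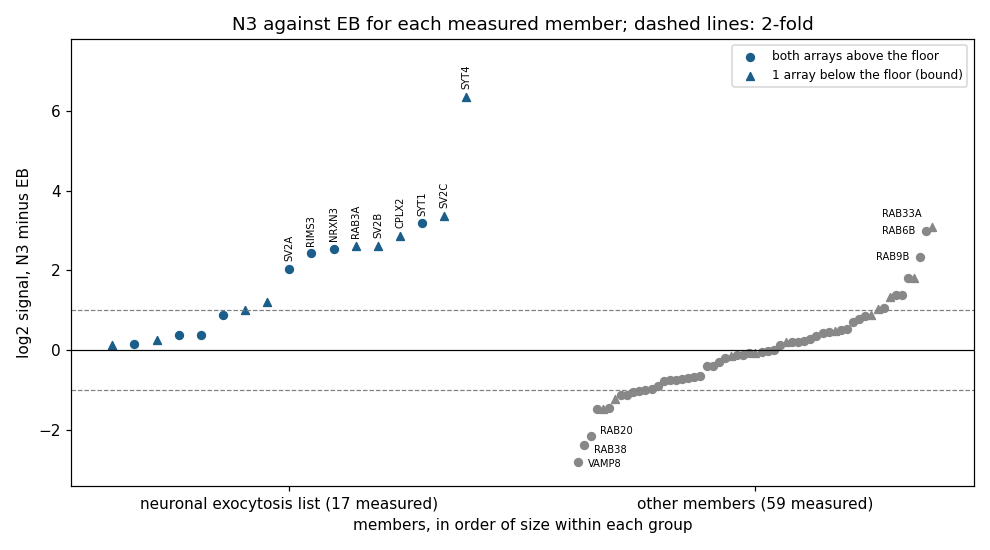
Log2 signal in N3 minus EB for each measured member, split into the neuronal exocytosis list (17, blue) and the other members (59, grey), with triangles for bounds and dashed lines at 2-fold. The listed genes run from near 0 to SYT4 at 6.35, and the others spread to both sides, from VAMP8 at -2.80 to RAB33A at 3.10.

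Markers of neurons, of neuroendocrine cells and of skeletal muscle were higher over the same stages. The summed signal of 10 neuron markers was 12773 in ESC, 7941 in EB, 27944 in N1, then 43216 in N2 and 69196 in N3, and 8 of 10 were at least 2-fold higher in N3 than in EB. That of 4 endocrine and secretory markers (CHGB, SCG2, PCSK2, INSM1) was 435 in ESC, 194.5 in EB, 2239 in N1, then 4686 in N2 and 7660 in N3. Skeletal muscle markers (3 genes) summed to 213.4 in EB, 6234 in N2 and 29641 in N3. Of 5 glial markers, 2 were at least 2-fold higher in N3 than in EB, SLC1A3 (893 and 4452) and S100B (96.3 and 513), while GFAP was 904 and 684 and MBP was below the floor in both. Their sum was 2006 in EB and 5837 in N3. Of 5 pluripotency genes, which summed to 53553 in ESC, 7057 in EB and 4088 in N3, 3 stayed above the floor in N3. At 2-fold, 4 were lower in N3 than in ESC and 1 was higher, NANOG (1047 in ESC and 2155 in N3, 2.06-fold). Which of these cell types carried the members' RNA was not tested.

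Among the calcium sensors, SYT4 had the largest difference of all members. SYT4, a synaptotagmin of neuronal and endocrine granules that lacks calcium binding in its first C2 domain (Entrez gene 694191), measured 12.2 in ESC, 38.2 in EB, 1149 in N1, then 5490 in N2 and 8174 in N3. It was below the floor at both early stages and above it from N1 on. Its signal was at least 11.5-fold higher in N1 than in EB, 4.78-fold higher in N2 than in N1, 1.49-fold higher in N3 than in N2, and at least 81.7-fold higher in N3 than in EB. It has 1 probe set, so no second one could be set beside it.

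SYT1, the fast calcium sensor of transmitter release (Entrez gene 695390), followed another course. Its signal was 4177 in ESC, 329 in EB, 530 in N1, then 1768 in N2 and 2985 in N3. ESC and N3 were high, and EB and N1 were low. All 4 probe sets of the gene gave that dip: the others measured 3371, 331, 568, 1387 and 3384, then 2483, 131, 380, 914 and 1605, then 548, 63.3, 76.3, 100 and 346, from ESC to N3. EB was 12.7-fold lower than ESC, N2 3.34-fold higher than N1, and N3 9.07-fold higher than EB. Relative to ESC, N3 stood at a log2 difference of -0.48 on the brightest probe set and of 0.01, -0.63 and -0.66 on the others. ESC also grew on mouse fibroblasts, and of 7 fibroblast markers 4 were at least 2-fold lower in EB than in ESC and 2 higher. TAGLN (35825 and 4660), THY1 (5443 and 628), COL1A2 and COL3A1 were the lower ones, whereas LUM and DCN were below the floor in ESC and at 17532 and 7189 in EB. The sum of the 7 was 49807 in ESC, 34657 in EB and 57183 in N3, and their part in the SYT1 values was not tested. L1CAM and TUBB3, both neuron markers, were also higher in ESC than in EB (2239 and 286 for L1CAM, 3684 and 663 for TUBB3). Of 9 neuron markers measured in EB against ESC, only these 2 were at least 2-fold lower in EB. Another 3 were at least 2-fold higher in EB: DCX (186 in ESC and 535 in EB), STMN2 (935 and 1986) and ELAVL4 (76.2 and 242).

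SYT3 and SYT6, close relatives found at the cell surface, were also higher late. SYT3 measured 126 in ESC, 54.2 in EB, 49.6 in N1, then 289 in N2 and 352 in N3, so that it was above the floor again in N2 (at least 2.89-fold above N1). The SYT6 signal was 542 in ESC, 159 in EB, 244 in N1, then 304 in N2 and 558 in N3, with the same dip as SYT1, 3.41-fold from ESC to EB, and a return of 3.51-fold from EB to N3. SYT17, a synaptotagmin-like protein without a membrane anchor, was lowest in N1 (327) and 2.38-fold higher in N2 (778), and its second probe set showed a log2 difference of 0.65 for that step. SYT16 reached 118 in N2 and 185 in N3 from below the floor at the 3 earlier stages. SYT8 and SYT12 were highest in ESC, at 186 and 193, and near or under the floor afterwards. Over the 11 synaptotagmins, 8 were measured in N3 against EB, with 4 higher, 0 lower and 4 under 2-fold (13% of all genes higher, 11.2% lower).

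**Figure D3:**
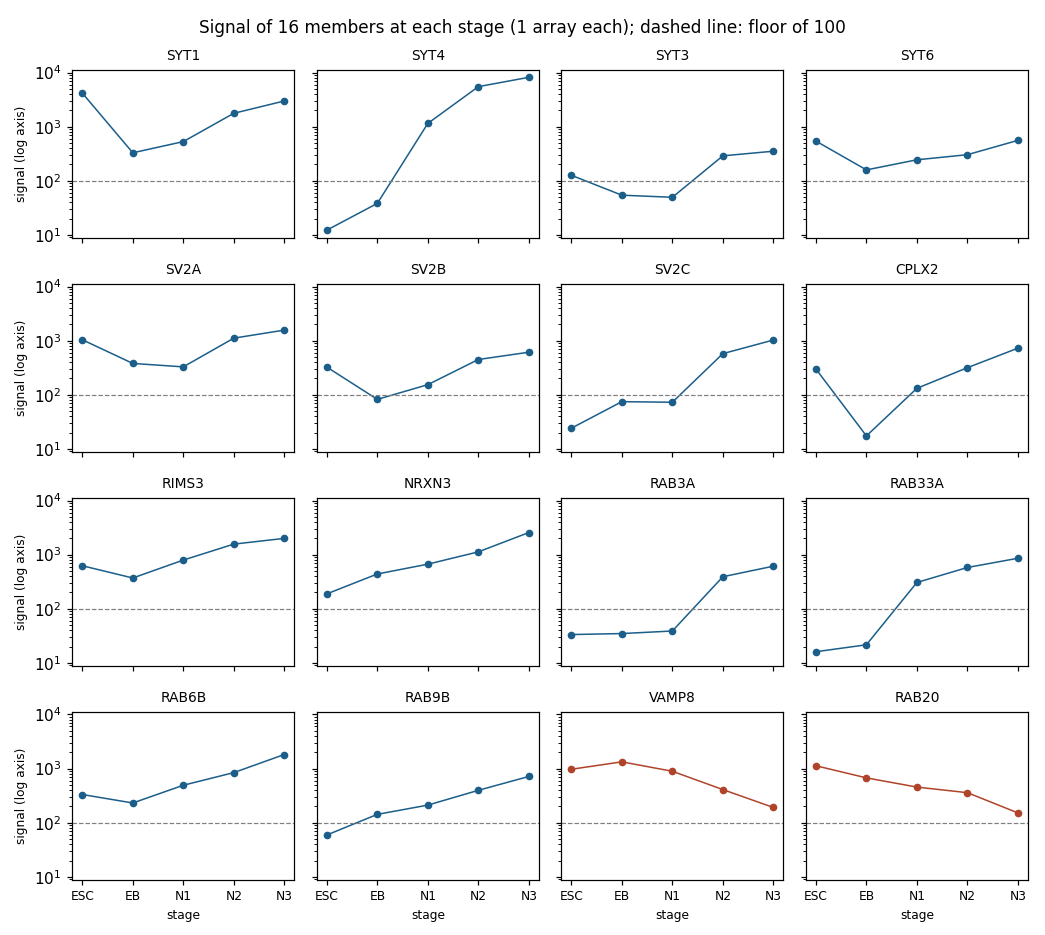
Signal of 16 members at the 5 stages (1 array each; log axis; dashed line, the floor of 100). The first 14 (blue) are higher in N3 than in EB, several with a dip from ESC to EB as for SYT1, SYT6, SV2B and CPLX2, and VAMP8 and RAB20 (red) are lower.

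The vesicle membrane proteins of the SV2 family, glycoproteins that modulate release, all had their highest signal in N3. SV2A measured 1039 in ESC, 379 in EB, 328 in N1, then 1112 in N2 and 1566 in N3. For SV2B the signals were 324, 82.1, 154, 448 and 611, and for SV2C 24.1, 74.6, 72.7, 576 and 1027, in the same order of stages. SV2A and SV2B were thus high in ESC, low in EB and N1 and high again in N2 and N3, whereas SV2C stayed below the floor until N2. The step from N1 to N2 was 3.39-fold for SV2A, 2.92-fold for SV2B and at least 5.76-fold for SV2C. From EB to N3, SV2A was 4.13-fold higher, SV2B at least 6.11-fold and SV2C at least 10.3-fold. SYN2, a synapsin that tethers vesicles to actin, ranged from 152 to 226 with its highest value in N3 and no 2-fold difference. SYNGR2, the synaptogyrin of non-neuronal cells, was 2.58-fold higher in N3 (1625) than in ESC (631), but its other probe sets had log2 differences of -2.10 and -0.38 for that comparison. SYNGR4 was 312 in ESC and 173 in N3.

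CPLX2, a complexin, measured 299 in ESC, 17.3 in EB, 131 in N1, then 316 in N2 and 726 in N3. It lay below the floor in EB and was higher at each step from there, with N3 2.29-fold above N2. Its second probe set lay between 35.3 and 103 and did not show this course. RIMS3, a short RIM protein of the active zone, stood at 623, 370, 793, 1564 and 1996 from ESC to N3, 5.39-fold higher in N3 than in EB. The other RIMS3 probe set was below the floor on all 5 arrays.

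Among the adhesion genes of the synapse, NRXN3, a presynaptic neurexin, measured 188 in ESC, 439 in EB, 666 in N1, then 1125 in N2 and 2559 in N3. It was lowest in ESC and higher at every later stage, 13.6-fold in N3 against ESC and 5.83-fold against EB. The second probe set gave 177, 136, 431, 428 and 995, and log2 differences of 2.49 and 2.87 for these comparisons against 3.76 and 2.54. NLGN1, its partner across the cleft, was 155, 247, 345, 563 and 452, with the highest value in N2, and 2.93-fold higher in N3 than in ESC. NLGN4X had 18451 to 24303 on its brightest probe set, with no 2-fold difference, but 53.1 to 117 and 58.0 to 521 on the other 2, so its level rests on 1 probe set that the others do not share.

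**Figure D4:**
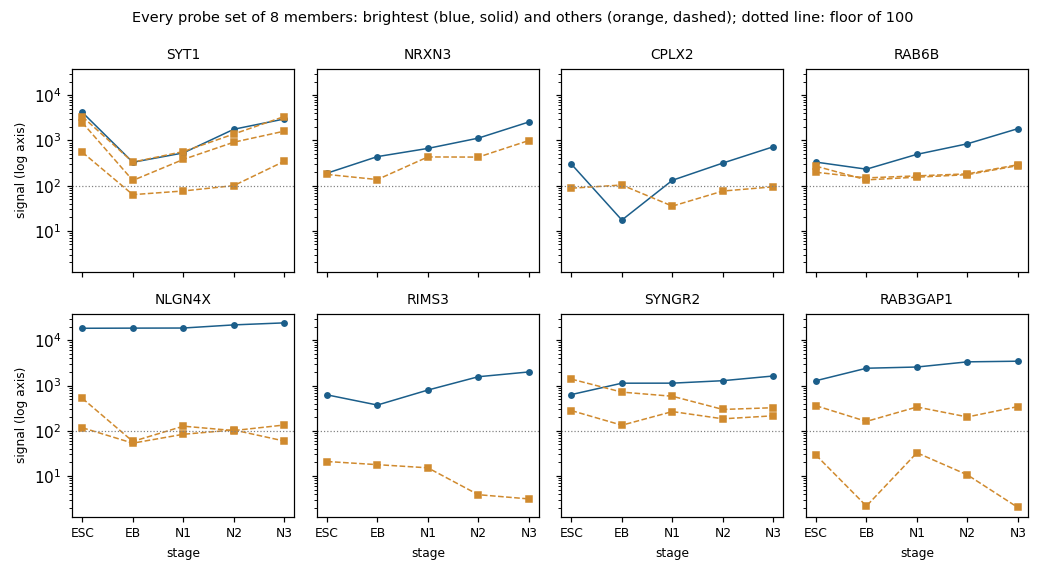
Signals of every probe set of 8 members over the stages (log axis; brightest in blue, others in orange; dotted line, the floor of 100). The 4 SYT1 probe sets share a low point in EB and the 2 of NRXN3 both end highest in N3, whereas the others of NLGN4X, RIMS3, CPLX2, SYNGR2 and RAB3GAP1 do not follow the brightest.

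The RAB3 GTPases mark vesicles ready for regulated release. RAB3A, the main form of neurons, measured 33.3 in ESC, 34.8 in EB, 38.8 in N1, then 390 in N2 and 611 in N3. It was thus below the floor through N1 and above it in N2 and N3, by at least 3.90-fold from N1 to N2 and at least 6.11-fold from EB to N3. RAB3B was above the floor at the outer stages, with 261 in ESC and 199 in N3, and below it in between (58.9 to 83.7), and its second probe set showed the same course (224, 56.7, 72.6, 62.1 and 156). RAB3D, a form of exocrine granules, was 252 in ESC and below the floor afterwards. RAB26, a RAB of secretory granules, was 186, 51.3, 337, 206 and 232, highest in N1. RAB27A had 183 in N1 and 64.0 to 104 elsewhere. RAB3GAP1, a subunit of the enzyme that switches RAB3 off, was 2.70-fold higher in N3 (3450) than in ESC (1278), with a log2 difference of -0.07 on its next brightest probe set. Its partner RAB3GAP2 ranged from 3545 to 4867. RAB3IP, which loads RAB8 with GTP, ranged from 449 to 739, and RAB37, a RAB of secretory cells, from 15.6 to 141.

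Among the other RABs, RAB33A, RAB6B and RAB9B had the largest higher differences from EB to N3. RAB6B, the neuronal relative of the Golgi protein RAB6A, measured 332 in ESC, 231 in EB, 493 in N1, then 843 in N2 and 1822 in N3, 7.87-fold higher in N3 than in EB. The 2 other RAB6B probe sets had smaller log2 differences, 1.05 and 0.97, against 2.98. RAB6A was 3965 in EB and 3944 in N3 on its brightest probe set, but its 3 other probe sets had log2 differences of 1.12, 0.96 and 0.94. RAB33A, known from brain and lymphoid cells, was 16, 21.6, 306, 578 and 856, at least 8.56-fold higher in N3 than in EB. RAB33B, its widespread relative in the Golgi, was 662 in EB and 335 in N3. RAB9B, a RAB of late endosomes, was 59.3, 143, 212, 397 and 716, 5.02-fold higher in N3 than in EB, and its second probe set reached the floor in N3 only (134). RAB24, linked to autophagy, was 2.07-fold higher in N3 (677) than in EB (327), and RAB30, of the Golgi, at least 2.51-fold (251 and 91.1). Another RAB30 probe set had 119 in EB and 115 in N3, and the last was below the floor in both. The former had log2 differences of 0.43 for N1 against EB, -0.10 for N2 against N1 and -0.38 for N3 against N2. RAB40B and RAB11B were under 2-fold in N3 against EB but 2.35-fold and 2.03-fold higher in N3 than in ESC.

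A pattern chosen after the values were seen counts genes with EB below N1, N1 below N2 and N2 below N3, N3 at least 2-fold above EB and at 200 or more in N3. Of 56 members at 200 or more in N3, 12 had it, and 763 of 8555 such genes on the array (8.92%). The 12 were SYT1, SYT4, SYT6, SV2B, CPLX2, RIMS3, NRXN3, STX2, RAB3A, RAB6B, RAB9B and RAB33A, of which 7 are in the neuronal list. For RAB3A both EB and N1 lay below the floor, so its first step has no measured order; with such signals counted as ties the pattern held for the 11 others and for 7.74% of genes. All 12 kept the pattern with the values as deposited, which nearly match the main scaling. Under quantile normalisation, equal medians and hybridisation controls 10 of the 12 kept it each time.

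Of the surface syntaxins, 1 of 5 was higher (STX2) and 1 lower (STX3) from EB to N3, and of 5 measured VAMPs 0 were higher and 2 lower, against 13% and 11.2% of all genes. STX1A, the surface syntaxin of neurons, measured 245 in ESC, 108 in EB, 169 in N1, then 46.8 in N2 and 120 in N3. It was highest in ESC and below the floor in N2, where SYT1, SV2A and RAB3A were higher than in N1. VAMP2, the main synaptic VAMP, stayed between 20.3 and 118, and VAMP1 reached the floor in N2 only (200). SNAP91, which assembles clathrin coats at nerve endings, ranged from 82.6 to 120. STX4, a syntaxin of the surface of most cells, was 399 in ESC and at most 111 later, and STX3, a syntaxin of apical surfaces, was 2.75-fold lower in N3 (260) than in EB (714). The 2 other STX3 probe sets were under the floor in both. STX2, another surface syntaxin, measured 230, 96.5, 111, 162 and 206, with both ends of the series high and EB below the floor. STX11, a syntaxin of immune cells, was below the floor in ESC (11.4) and between 132 and 164 later. SNAP47, the one relative of SNAP25 among the members, ranged from 659 to 907.

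VAMP8, a VAMP of endosomes and of granule release in epithelial and blood cells, had the largest lower difference from EB to N3. It measured 973 in ESC, 1333 in EB, 893 in N1, then 410 in N2 and 191 in N3, which was 6.97-fold lower in N3 than in EB. Its second probe set was 735, 1001, 844, 441 and 272, a log2 difference of -1.88 against -2.80. Both probe sets were highest in EB and lowest in N3. VAMP5, known from muscle, was 2.02-fold lower (722 and 357). VAMP4 and VAMP7, of the Golgi and late endosomes, did not differ 2-fold in any of the 6 comparisons on their brightest probe sets. Another VAMP4 probe set measured 67.9, 104, 241, 217 and 235, with log2 differences of 1.22 for N1 against EB, 1.18 for N3 against EB and 1.23 for N3 against ESC.

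The intracellular syntaxins had few 2-fold differences. STX16, of the trans-Golgi network, was 695, 520, 1314, 912 and 1360 from ESC to N3, 2.52-fold higher in N1 than in EB, and its 2 other probe sets gave log2 differences of 1.32 and 1.53 against 1.34. STX5, of the Golgi, was 2.37-fold higher in EB (2259) than in ESC (955). STX8 and STX18, of late endosomes and the endoplasmic reticulum, were lower in N2 than in N1, by 2.44-fold (1481 and 606) and 2.18-fold (868 and 398). STX10 and STX12 did not pass 2-fold.

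Of the syntaxin-binding proteins, STXBP6, which competes with VAMP for the SNARE complex, was 259 in ESC, 1457 in EB, 1369 in N1, then 1376 in N2 and 672 in N3. It was 5.62-fold higher in EB than in ESC, and its second probe set went from 188 to 339 and then to 134 in N3. STXBP3, the partner of STX4, ranged from 7243 in N3 to 12437 in EB. STXBP2 was above the floor in ESC only (122).

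Of the other RABs, 7 were at least 2-fold lower in N3 than in EB: RAB17, RAB20, RAB23, RAB31, RAB34, RAB38 and RAB42. RAB20 measured 1129, 674, 456, 359 and 152 from ESC to N3, lower at each stage than at the one before, and 4.44-fold lower in N3 than in EB. Its second probe set did not show this course (158, 82.1, 103, 70.1 and 76.7) and was below the floor in both EB and N3. RAB38, of melanosomes and related organelles, was 169, 646, 388, 151 and 124, with a peak in EB and a 5.2-fold lower value in N3. RAB17, of polarised epithelia, was 15.9, 277, 218, 131 and 76.1. RAB25, also epithelial, was 271 in ESC, 152 in EB, 291 in N1, then 142 in N2 and 115 in N3, highest in N1 and 2.35-fold lower in N3 than in ESC. RAB34, a Golgi and cilium protein, and RAB23, a cilium protein in Hedgehog signalling, were 2.78-fold and 2.19-fold lower in N3 than in EB. RAB31 and RAB42 were also lower, by 2.05-fold and at least 2.34-fold. Endoderm markers (5 genes) summed to 1902 in ESC, 48247 in EB, 33471 in N1, then 9142 in N2 and 1499.9 in N3. Most of that sum in EB was APOA1 (20596 in EB and 456 in N3) and FGB (26301 and 71.2). Only these 2 of the 5 were at least 2-fold lower in N3 than in EB. AFP (601 and 437) and FOXA2 (617 and 325) were lower and APOB (131 and 210) higher, all under 2-fold. The part of endoderm cells in the lower RABs was not tested.

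In all, 17 of the 30 other RABs measured in both EB and N3 or in 1 of them differed by less than 2-fold, with log2 differences from -0.996 to 0.847. They include RAB1A and RAB2A, of early secretion, RAB7A, of late endosomes, and RAB8B and RAB4A, of the recycling and exocytic routes. RAB7A measured 6358 in EB and 6068 in N3, RAB8B 10306 and 10412, and RAB2A 5268 and 6054.

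EB against ESC showed 8 of 73 measured members higher (11%; 12.1% of all genes) and 13 lower (17.8%; 11.8% of all genes). Equal medians turned that split to 20 higher and 10 lower, and it was 6 and 19 with the median over all probe sets of a gene. Of 20 called members followed across the alternative settings, 9 kept 2-fold under each. In the neuronal list 1 of 13 was higher (NRXN3) and 6 lower: SYT1, SV2A, SV2B, CPLX2, RAB3B and STX1A. Besides STXBP6 and NRXN3, the higher ones were STX5, RAB38 (3.84-fold), RAB17 (at least 2.77-fold), RAB33B, RAB32 and RAB5C, the last with 1754 and 3792 and, on its next probe set, 2014 and 4119, but 1261 and 747 on the third. The remaining lower ones were SYT6, STX2, STX4, RAB1B, RAB3D, RAB5A and RAB10.

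Some of these lower members also tracked the actin measure of RNA quality. The signal ratio of the 3' to the 5' probe set of actin was 1.73 in ESC, 15.2 in EB, 5.43 in N1, then 25.2 in N2 and 8.63 in N3. The GAPDH ratio was 1.94, 2.78, 1.69, 7.10 and 2.10 from ESC to N3, and the EF1a ratio 0.86, 0.96, 0.83, 1.88 and 1.06. Both were lowest in N1, not in ESC, and highest in N2, so the order used below is that of actin only. RAB1B, a RAB of transport from the endoplasmic reticulum, measured 1037 in ESC, 20.8 in EB, 201 in N1, then 10.1 in N2 and 114 in N3. That was the exact reverse of the order of the actin ratio, although EB and N2 both lay below the floor. RAB10, of exocytic transport, was 443, 10.3, 142, 25.5 and 140, and RAB5A, of early endosomes, 1078, 150, 462, 238 and 393. The second RAB5A probe set went the other way from ESC (83.6) to N3 (573). Of 127 probe sets of members at 100 or more in ESC, 9 had the exact reverse order (7.09%), beside 3.99% of such probe sets of all named genes. They include the brightest ones of RAB1B, RAB3D, STX1A, STX10 and RAB1A. With signals below the floor counted as ties, 6 remained in that order (4.72%, beside 2.83%), with RAB1A, STX10 and STX1A by their brightest probe sets, and those of RAB1B and RAB3D and the one of RAB35 did not. The part of RNA quality in these values was not tested. Without those 5 members the counts for EB against ESC were 8 higher and 10 lower. The order that picked them puts ESC above EB, so leaving them out could only take away lower members.

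**Figure D5:**
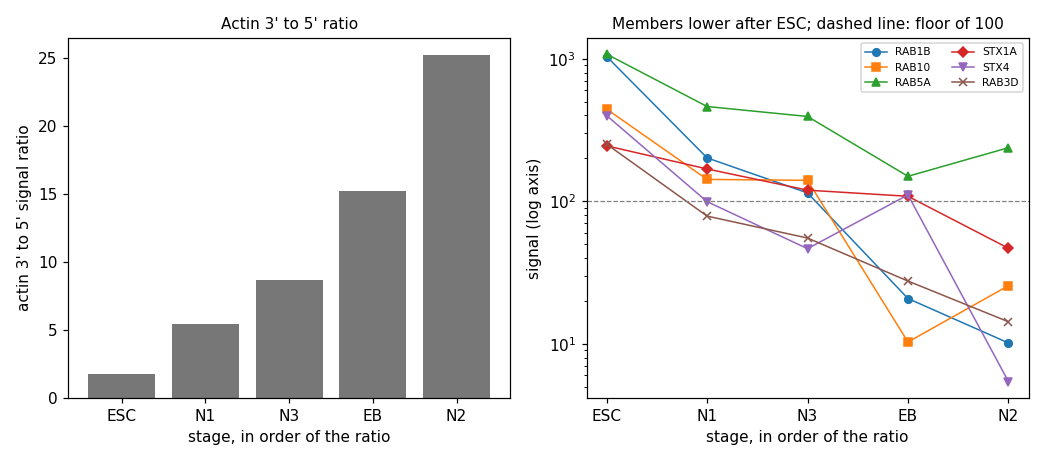
Left, the actin 3' to 5' signal ratio (bars) with stages ordered by it, from 1.73 in ESC to 25.2 in N2; right, signals of 6 members in that stage order (log axis; dashed line, the floor of 100). STX1A is lower at each place in the order. RAB1B and RAB3D are drawn so too, but RAB1B in EB and N2 and RAB3D after ESC lie below the floor, where signals have no order. RAB10, RAB5A and STX4 are highest in ESC with 1 or more places out of order.

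Of 71 members measured in N1 against EB, 9 were higher (12.7%; 5.15% of all genes) and 0 lower (2.2% of all genes). They were SYT4, RIMS3 (2.14-fold), RAB26 (at least 3.37-fold), RAB33A (at least 3.06-fold), RAB6B (2.13-fold), STX16, RAB5A (3.09-fold), RAB30 and RAB1B. The split moved with the scaling: 4 were higher and 5 lower with equal medians, 5 and 1 after quantile normalisation, and 17 and 0 with hybridisation controls, where the neuronal list had 7 higher in place of 3. Of the 9 members called higher, 2 kept 2-fold under every alternative setting. The actin ratio was 15.2 in EB and 5.43 in N1.

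From N1 to N2, the step in which FGF4 was added, neuronal list genes were among the higher members. Of 74 measured members 10 were higher (13.5%; 5.06% of all genes) and 8 lower (10.8%; 6.53% of all genes). In the neuronal list 8 of 17 were higher and 0 lower (median log2 difference 0.98): SYT1, SYT4, SV2A, SV2B, SV2C, CPLX2, RAB3A and VAMP1. With hybridisation controls the list had 5 higher and 2 lower (median 0.40). Among the other members 2 of 57 were higher, SYT3 and SYT17, and 8 were lower: VAMP8, STX8, STX18, RAB1B, RAB25, RAB30, RAB38 and RAB42. The split was 6 and 21 with hybridisation controls, which moved the median of all genes to -0.57, and 13 and 6 with equal medians. Of the 18 members called in this step, 6 kept 2-fold under every alternative setting. All the 3' to 5' ratios were higher in N2 than in N1: actin 25.2 against 5.43, GAPDH 7.10 against 1.69 and EF1a 1.88 against 0.83. The part of RNA quality in this step was not tested.

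From N2 to N3, 4 of 74 members were higher (5.41%; 4.78% of all genes) and 4 lower (5.41%; 2.19% of all genes). NRXN3 (2.27-fold), CPLX2, RAB6B (2.16-fold) and RAB30 (at least 2.51-fold) were higher. VAMP1, VAMP8 (2.14-fold), RAB20 (2.36-fold) and STXBP6 (2.05-fold) were lower. Hybridisation controls gave 8 higher and 1 lower. Of the 8 members called in this step, only NRXN3 kept 2-fold under every alternative setting.

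N3 against ESC gave 16 of 78 members higher (20.5%; 17.2% of all genes) and 10 lower (12.8%; 16.4% of all genes). In the neuronal list 7 of 17 were higher, SYT4, SV2C, NRXN3, RAB3A, RIMS3, NLGN1 and CPLX2, and 1 lower, STX1A. With the median over all probe sets of a gene, 10 members were higher and 12 lower. Of 22 called members followed across the alternative settings, 11 kept 2-fold under each.

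Other presynaptic genes, outside the symbol rule, gave 24 genes of a list of 39. From EB to N3, 7 of 22 measured were at least 2-fold higher and 2 lower, with a median log2 difference of 0.65, where 13% of all genes were higher and 11.2% lower. AMPH, which bends membrane in vesicle recycling, measured 85.4, 92.7, 86.0, 410 and 817 from ESC to N3, at least 8.17-fold higher in N3 than in EB. The active-zone scaffold gene PPFIA2 was at least 5.46-fold higher and DNM1, the neuronal dynamin that pinches vesicles off, 4.50-fold. SNCB, PPFIA4, SH3GL2 and LIN7B were the others, and CADPS2 and SYPL1 were lower, by 3.03-fold and 2.09-fold. Of 20 genes of the general SNARE and RAB machinery, all measured, 1 was higher from EB to N3 (NAPA, 437 and 910, with 1363 in ESC, 962 in N1 and 332 in N2) and 0 lower, and the median was 0.02.

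The disagreement between probe sets of a gene gives a technical spread, though not a replicate one. It was taken as the SD of the gap in log2 difference between the brightest and the next measured probe set, divided by the square root of 2. The SD of the gap itself is thus larger than the values given. They were 0.87 for EB against ESC, 0.46 for N1 against EB, 0.50 for N2 against N1, 0.40 for N3 against N2, 0.65 for N3 against EB and 1.00 for N3 against ESC, over 31 to 35 members. In N3 against EB, 13 members past 2-fold had a second measured probe set, which had the same sign for 11 and was itself past 2-fold for 8. In N3 against ESC this was so for 5 and 2 of 9, and 2 passed 2-fold the other way, RAB5A and SYNGR2.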

How the data were processed

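RNA of 5 stages was hybridised to 1 rhesus Affymetrix array each. The deposited values are linear intensities, made by the authors with GCOS 1.0 per the submitters' processing notes, which give no algorithm or settings. With 1 array a stage the number of arrays limits the precision. The intensities were rescaled to a 2% trimmed mean of 500 over all but 158 control probe sets, floored at 100 and set on the log2 scale (Python 3.11.15, numpy 2.4.6, pandas 2.3.3). The platform annotation, which can be old, lists 25330 of 52865 probe sets: 24969 with 1 symbol, which were used, and 361 with several, which were not. A gene is its probe set of highest mean log2 signal.

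Counts at 2-fold in 6 comparisons stand beside the percent of all named genes. The neuronal list and SYT1 and SYT4 were named whatever their value, as were, per comparison and direction, up to 10 members past 2-fold that reached 200. Any other gene was named after its values were seen. Members and lists were chosen with earlier results of these data known. Other scalings, floors, probe-set rules and a 4-fold threshold were tried. The counting was tested on simulated data with 4-fold changes in bright genes only, which does not test calls near 2-fold or near the floor.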

Additional observations from a re-analysis of the deposited data

How the results depend on the processing

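No paired analysis was possible because each stage has 1 array and the replicate numbers carry no pairing. Of 2650 recomputed differences of named members (265 values under 10 settings), 2415 moved by less than the SD between probe sets, 233 moved by more and 2 reversed: with the median over all probe sets of a gene, RAB5A and STXBP6 in N3 against ESC had log2 differences of 0.53 and -0.49. Counts of members that moved by over 1.5 times follow, higher before lower; the other counts did not move that far, and the cause was not tested. Quantile normalisation gave 5 higher and 1 lower in N1 against EB. Equal medians, which moved the median of all genes to 0.41 for EB against ESC, -0.37 for N1 against EB, and also to -0.43 for N3 against EB, gave 20 higher for EB against ESC, 4 and 5 for N1 against EB, and 22 lower for N3 against EB. Hybridisation controls, with all-gene medians of 0.41 for N1 against EB, -0.57 for N2 against N1 and 0.17 for N3 against N2, gave 17 higher, then 6 and 21, then 8 and 1. A floor of 50 gave 9 higher for N3 against N2. A floor of 200 gave 6 lower for EB against ESC, 5 higher for N1 against EB, 6 and 3 for N2 against N1, 2 lower for N3 against N2 and 5 lower for N3 against ESC. With no floor, on log2(value + 1), there were 13 higher for EB against ESC, 16 and 2 for N1 against EB, 14 lower for N2 against N1, 11 and 8 for N3 against N2, 17 lower for N3 against EB and 17 lower for N3 against ESC. The median of probe sets gave 2 and 1 for N3 against N2 and 10 higher for N3 against ESC. At 4-fold there were 1 and 4 for EB against ESC, 1 higher for N1 against EB, 2 and 0 for N2 against N1, 0 and 0 for N3 against N2, 12 and 3 for N3 against EB and 7 and 3 for N3 against ESC. Signals near 100 limit the values of members such as RAB3B, SNAP91, STX11 and VAMP2.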
